A study of Mus musculus with 12 samples.

Results

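The 10 genes described here are markers and regulators of pluripotency: the transcription factor genes Pou5f1, Nanog, Sox2, Zfp42 and Esrrb, the chromatin-associated gene Utf1, and the developmental pluripotency-associated genes Dppa2, Dppa3, Dppa4 and Dppa5a. They were taken by symbol, but with earlier results of these data known, so the counts of calls below are not from a blind choice. All 10 are among the 12845 genes measured. RNA was sequenced from gonads of mouse embryos at stage E13.5, from matings with Oct4GFP males (strain labelled Oct4GFPxICR). Cells were sorted by the reporter into GFP-positive primordial germ cells (PGCs) and GFP-negative soma of each sex. This gave 4 groups of 3 libraries, PGC and soma of males and PGC and soma of females. No group received a treatment. The labels do not say how many embryos a library holds or whether replicates came from separate litters. P-values therefore take in no spread beyond that between these libraries. Oct4 is the product of Pou5f1, so the reporter that separated PGCs from soma reads out 1 of the 10 genes, and the Pou5f1 difference between PGCs and soma is partly set by the sort.

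Pluripotency is the capacity of a cell to form all tissues of the embryo. In embryonic stem cells it rests on a transcription factor network in which Oct4 and Sox2 bind DNA together, often at composite elements, and act with Nanog and Esrrb on one another's genes and on those of Zfp42 and Utf1. PGCs switch this network on again after they are specified and keep it during their migration, although they form only gametes. Around the stage sampled here, female germ cells begin meiosis and male germ cells move towards mitotic arrest, and expression of the network declines in both sexes.

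Levels are given in CPM, the reads of a gene scaled to the total of its library, which was 6454322 to 24791414 reads per library. Germ cell markers Ddx4, Dazl and Mael reached 717, 1606 and 216 CPM in male PGCs and 847, 1743 and 326 CPM in female PGCs (means, n = 3). Some marker lists of other cells were lower in the PGC libraries and others were not. The 5 stromal markers summed to 9.18 to 42.9 CPM in PGCs against 7624 to 11133 CPM in soma, and the 8 supporting cell markers to 12.4 to 103 CPM against 719 to 1768 CPM. The 5 endothelial markers summed to 73.5 to 128 CPM in PGCs and 90.9 to 157 CPM in soma. Of these, 4 were called lower in PGCs of both sexes, and the fifth, Pecam1, was higher, at 97.9 and 90.5 CPM in male and female PGCs against 13.52 and 14.8 CPM in soma. Of 7 neural markers listed, 4 were measured. They summed to 79.3 to 88.0 CPM in male PGCs and 35.9 to 48.3 CPM in male soma. Singly, 1 was called higher in male PGCs, 1 lower and 2 neither, on the read depth values described below. In females the neural sums were 29.9 to 44.3 CPM in PGCs and 23.8 to 104 CPM in soma.

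Promoter sequences are shown for 5 members (RefSeq, GRCm38.p6, 250 bases before to 50 after a gene start), to set beside their levels the elements through which Oct4 and Sox2 are known to act. Windows were found for 6 of the 10 members, and Dppa2, Dppa3, Dppa4 and Dppa5a had none. Gene starts here are those of RefSeq and can differ from the GENCODE locations given below. The Sox2 window ends at 34650044, before the GENCODE start of Sox2 at 34650405. Esrrb, whose windows hold no match before the gene start, is not printed. Each sequence runs 5′ to 3′ on the strand of its gene, and capitals mark a match to a searched motif on either strand.
Nanog, chr6:122707239-122707538, plus strand: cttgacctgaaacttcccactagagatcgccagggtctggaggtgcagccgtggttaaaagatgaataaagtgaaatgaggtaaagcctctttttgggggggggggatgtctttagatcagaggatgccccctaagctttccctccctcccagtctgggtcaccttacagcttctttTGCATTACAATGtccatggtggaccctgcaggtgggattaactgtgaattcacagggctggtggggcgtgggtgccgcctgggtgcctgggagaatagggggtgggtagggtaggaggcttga
Zfp42, chr8:43306960-43307259, minus strand: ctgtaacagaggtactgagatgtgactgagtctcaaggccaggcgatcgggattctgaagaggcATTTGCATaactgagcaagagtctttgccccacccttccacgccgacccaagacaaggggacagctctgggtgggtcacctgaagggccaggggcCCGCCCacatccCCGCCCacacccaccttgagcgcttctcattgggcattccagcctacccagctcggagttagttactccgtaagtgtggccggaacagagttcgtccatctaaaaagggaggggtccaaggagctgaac
Pou5f1, chr17:35505782-35506081, plus strand: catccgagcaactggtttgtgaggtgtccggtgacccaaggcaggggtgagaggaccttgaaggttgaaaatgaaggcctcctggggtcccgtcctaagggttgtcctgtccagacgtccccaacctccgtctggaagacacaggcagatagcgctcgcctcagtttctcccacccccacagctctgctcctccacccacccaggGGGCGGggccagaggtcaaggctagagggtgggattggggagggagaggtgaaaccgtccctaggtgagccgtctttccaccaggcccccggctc
Sox2, chr3:34649745-34650044, plus strand: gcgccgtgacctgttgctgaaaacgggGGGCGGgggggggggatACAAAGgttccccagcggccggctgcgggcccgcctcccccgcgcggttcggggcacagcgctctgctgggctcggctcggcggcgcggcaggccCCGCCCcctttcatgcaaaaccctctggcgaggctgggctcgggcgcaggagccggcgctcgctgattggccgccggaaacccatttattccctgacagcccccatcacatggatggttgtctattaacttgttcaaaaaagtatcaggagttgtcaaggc
Utf1, chr7:139943606-139943905, plus strand: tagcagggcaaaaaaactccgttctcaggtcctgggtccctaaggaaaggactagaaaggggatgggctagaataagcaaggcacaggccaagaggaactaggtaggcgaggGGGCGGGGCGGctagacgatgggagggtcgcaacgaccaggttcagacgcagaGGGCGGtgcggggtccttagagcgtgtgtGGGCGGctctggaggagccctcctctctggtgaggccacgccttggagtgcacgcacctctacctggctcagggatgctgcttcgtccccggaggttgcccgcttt

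The Nanog window holds a composite octamer and SOX element, the first run of capitals, starting 73 bases before the gene start. This element was found in 0.122% of all 32851 windows of the same length. Its last letters also match the SOX motif ACAATG, which 12.6% of all windows hold and which was found too in a window of Esrrb and in the second window of Pou5f1. The octamer ATGCAAAT was found in the window of Zfp42, on the other strand and 186 bases before the start, and in 1.74% of all windows. A second SOX motif, ACAAAG, was found in the Sox2 window and in 18.7% of all windows. GC boxes, GGGCGG, were found in the windows of Utf1, Sox2, Zfp42 and Pou5f1 and in 35.7% of all windows, with 4 matches in Utf1. No member's window held the E-box CACGTG (7.15% of all windows), the TATA box TATAAA (13.6%) or the Esrrb half-site TCAAGGTCA (0.423%). The windows also differed in CpG content, with 27 CpG in Sox2, 17 in Utf1 and 11 in Zfp42 and in the printed Pou5f1 window. Each Esrrb window held 7 and Nanog 4, against a median of 7 over all windows. Sox2, which differed least between the sexes in PGCs, had the window richest in CpG, and Nanog, which differed most, the poorest, but Utf1, with the second most CpG, also fell deeply. Dppa3 and Dppa4, which also fell deeply, had no window. With 6 members this order is a description.

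Pou5f1 encodes Oct4, the POU factor without which no pluripotent cells form (chromosome 17, 35506018 to 35510772 of GRCm38, plus strand, ENSMUSG00000024406.16). Its level was 782, 754 and 740 CPM in the 3 male PGC libraries and 238, 249 and 334 CPM in the 3 female PGC libraries. The male libraries lay close together, and each was above every female library. In soma it was 1.53, 0.565 and 1.14 CPM in males and 8.67, 5.98 and 1.53 CPM in females, so that the soma libraries of both sexes were far below all PGC libraries. An antisense gene, Gm19553, overlaps exons of Pou5f1, and the sources used here do not say whether counting used strand, so its reads cannot be told apart from those of Pou5f1.

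Nanog encodes a homeobox factor that holds pluripotent cells in self-renewal (chromosome 6, 122707489 to 122714633, plus strand, ENSMUSG00000012396.12). Male PGCs had 94.3, 110 and 95.9 CPM of Nanog and female PGCs 12.3, 13.48 and 23.5 CPM. All 3 female libraries were below the lowest male one, and replicate 3 stood above the other female libraries. Nanog in male soma was 0, 1.21 and 0.653 CPM and in female soma 1.44, 0.921 and 0.509 CPM, with overlapping ranges. The printed window with its composite element belongs to this gene. Stretches of its transcripts are at least 95% identical over at least 100 bases to transcripts of 61 other genes, up to 245 bases long, and some reads could have been counted elsewhere. The same holds for Dppa2, Dppa4, Dppa3 and Zfp42, which match processed pseudogenes over up to 906, 735, 451 and 266 bases, so that their levels, also per kilobase, are uncertain to that extent.

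Sox2 encodes the SOX factor that partners Oct4 (chromosome 3, 34650405 to 34652461, plus strand, ENSMUSG00000074637.7). Sox2 stood at 164, 181 and 164 CPM in male PGCs and at 118, 147 and 169 CPM in female PGCs. Here the groups overlapped, because female replicate 3 was above 2 of the male libraries. Male soma held 0.109, 0.323 and 0.218 CPM of Sox2, and female soma 6.33, 5.37 and 0 CPM. Female soma therefore split, with replicates 1 and 2 above every male soma library and replicate 3 with no read, where a count of 0 allows up to 3 reads. The long noncoding gene Sox2ot spans Sox2 on the same strand without sharing exons with it, and its level was 4.84 ± 1.498 CPM in male PGCs and 4.98 ± 0.427 CPM in female PGCs (SD, n = 3).

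Dppa2 and Dppa4 encode SAP domain proteins that bind DNA together and open genes of the early embryo, and they lie 9671 bases apart on chromosome 16. Dppa2 (48303908 to 48319723, plus strand, ENSMUSG00000072419.5) had 45.8, 57.6 and 50.7 CPM in male PGCs and 19.5, 21.2 and 34.0 CPM in female PGCs. Its neighbour Dppa4 (48283733 to 48294237, plus strand, ENSMUSG00000058550.15) had 422, 286 and 387 CPM in male PGCs and 58.9, 71.1 and 80.1 CPM in female PGCs. Neither gene overlapped between the sexes, and the fall in females was deeper for Dppa4, to 19.2% of the male mean, than for Dppa2, to 48.5%. In soma Dppa2 was at 0, 0 and 0.163 CPM in males, which is 3 reads in all, and at 0.667, 0.153 and 0 CPM in females. Dppa4 was at 0.983, 0.323 and 0.653 CPM in male soma and at 3.22, 0.460 and 0.127 CPM in female soma, and the sexes overlapped for both.

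Dppa3, also called Stella or PGC7, encodes a protein that shields methylated DNA in the egg and early embryo from demethylation (chromosome 6, 122626410 to 122630272, plus strand, ENSMUSG00000046323.8). Male PGC libraries carried 951, 804 and 919 CPM of Dppa3 and female PGC libraries 143, 155 and 192 CPM. The lowest male library was thus far above the highest female one. Dppa3 in soma came to 2.62, 0.686 and 1.36 CPM in males and 7.00, 2.91 and 0.890 CPM in females, with overlap. Dppa3 and Nanog lie 77217 bases apart in the same stretch of chromosome 6.

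Dppa5a encodes a KH domain RNA-binding protein of pluripotent and germ cells (chromosome 9, 78367052 to 78368177, minus strand, ENSMUSG00000060461.5). Counts were 404, 443 and 375 CPM in male PGCs and 107, 118 and 131 CPM in female PGCs, again without overlap. Among male soma libraries it had 0.328, 0.565 and 0.598 CPM, against 4.33, 3.84 and 0.381 CPM in female soma. As for Sox2, female soma replicates 1 and 2 were above all male soma libraries and replicate 3 was not. Stretches of Dppa5a are at least 95% identical to transcripts of 7 other genes. All but Pigp are pseudogenes, matched over 299 to 360 bases, so the level of Dppa5a, also per kilobase, is uncertain to that extent. The match to Pigp spans 417 bases. Pigp went the other way between PGCs of the sexes, from 52.3, 50.5 and 51.2 CPM in males to 124, 117 and 86.8 CPM in females.

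Utf1 encodes a chromatin-bound protein of undifferentiated embryonic cells (chromosome 7, 139943789 to 139945112, plus strand, ENSMUSG00000047751.9). It was measured at 490, 525 and 455 CPM in male PGCs and at 75.4, 89.1 and 145 CPM in female PGCs. All male libraries were above the female ones. In soma Utf1 was at 2.29, 3.07 and 2.50 CPM in males and at 4.00, 1.38 and 0.509 CPM in females, and the sexes overlapped.

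Zfp42 encodes Rex1, a zinc finger protein used as a marker of the naive state (chromosome 8, 43295063 to 43306980, minus strand, ENSMUSG00000051176.6). Rex1 transcripts reached 83.8, 92.3 and 69.6 CPM in male PGCs and 26.8, 26.5 and 30.1 CPM in female PGCs. The female libraries agreed closely and lay below all male ones. Only replicate 2 of male soma had any reads, 5 in all or 0.202 CPM, while female soma had 1.67, 1.69 and 0 CPM.

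Esrrb encodes an orphan nuclear receptor that sustains self-renewal (chromosome 12, 86361117 to 86521628, plus strand, ENSMUSG00000021255.17). Esrrb had 106, 136 and 119 CPM in male PGCs and 42.9, 29.4 and 70.5 CPM in female PGCs. Its female values were the most scattered of the members in relative terms, yet the highest was below the lowest male value. Levels in soma were 3.93, 2.26 and 1.52 CPM in males and 3.45, 1.07 and 0.636 CPM in females, and these overlapped.

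**Figure D1:**
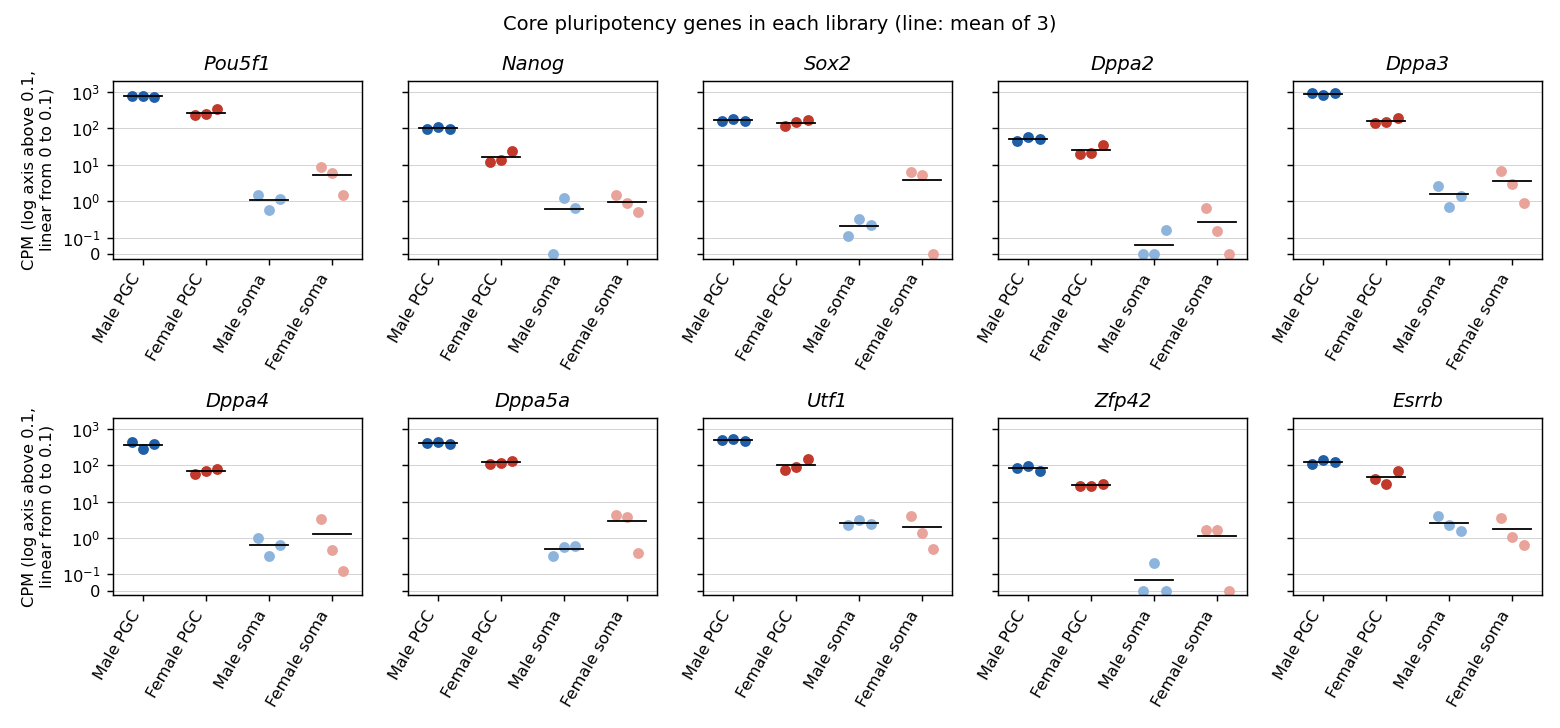
Level of each of the 10 genes in every library, in CPM on a log axis that turns linear between 0 and 0.1. Points are libraries and lines the mean of 3. Every PGC point lies above every soma point of its sex, and the male PGC points lie above the female ones for each gene but Sox2, where female replicate 3 at 169 CPM passes the male libraries at 164 CPM.

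All 10 genes were higher in PGCs than in soma of the same sex, and for each of them every PGC library was above every soma library of its sex in CPM, as were 37.6% of all genes in males and 39.1% in females. Together they took 0.338% to 0.354% of the reads in male PGCs, 0.0841% to 0.121% in female PGCs, and 0.000458% to 0.00408% in soma. In a bulk sample, fewer cells that express a gene and less of its RNA per cell cannot be told apart. The ratio of mean CPM between male PGCs and male soma was 703 for Pou5f1, 783 for Sox2, 819 for Dppa5a and 573 for Dppa3, and smaller for Utf1 at 187, Nanog at 161 and Esrrb at 46.8. For Dppa2 the ratio of pooled reads was 903, with an exact 95% interval of 309 to 4380, and for Zfp42 it was 870, with an interval of 372 to 2680. These intervals are wide because the soma reads behind them number 3 and 5, and they cover counting error only. In females the ratio of mean CPM ran from 17.1 for Nanog to 55.1 for Dppa4, leaving Dppa2 aside. The Dppa2 ratio of pooled reads in females was 79.0, with an interval of 38.2 to 197, on 7 soma reads of which 6 were in replicate 1. Without female soma replicate 1 the ratios of these 9 genes ran from 23.0 for Nanog to 238 for Dppa4, the latter on 4 soma reads, and without replicate 3 from 13.9 for Nanog to 38.4 for Utf1.

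The test was limma across all 12845 genes on each of the deposited tables of log2 values. Of these, 1 is scaled to read depth and 1 to cell number. In the main fit to the cell number values, SEs and p-values came from limma's trend of variance with level. A gene's own spread between replicates did not set them there. On the read depth values, which draw low values together (a library with 0 reads of Nanog has 3.51), all 10 members were called higher in male PGCs, where 39.1% of all genes were. All 10 were also called higher in female PGCs, where 38.7% of all genes were. The median log2 difference of the members was 6.25 in males and 4.38 in females, against -0.06 and -0.05 over all genes. The cell number values gave the same counts against 64% and 77.2% of all genes, and medians of 11.03 and 8.35. On that scale the median over all genes was itself shifted, by 1.42 in males and 2.36 in females. For single genes the read depth difference in males ran from 4.26 ± 0.31 (SE) for Esrrb (adjusted p = 1.1e-08) to 7.32 ± 0.35 for Dppa3 (adjusted p = 1.59e-10). In females it ran from 2.65 ± 0.29 for Nanog (adjusted p = 1.01e-06) to 4.61 ± 0.31 for Pou5f1 (adjusted p = 6.27e-09). Female PGC replicate 3 and female soma replicate 3 stood apart from their groups for these genes, and leaving out either changed none of these calls.

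Levels of different genes were compared per length, as CPM per kilobase of exon. In male PGCs the order was Dppa3 at 999 ± 86.9 (SD, n = 3), Dppa5a at 657 ± 55.1, Utf1 at 399 ± 28.6, Pou5f1 at 337 ± 9.59, Dppa4 at 220 ± 42.5, Sox2 at 82.5 ± 4.99, Nanog at 44.7 ± 3.97, Zfp42 at 43.5 ± 6.10, Dppa2 at 21.0 ± 2.41 and Esrrb at 19.9 ± 2.54. The libraries of neighbours in this order did not overlap, except those of Nanog and Zfp42 and those of Dppa2 and Esrrb. The small proteins Dppa3 and Dppa5a thus had the most RNA per length, and the core factors spanned a wide range, with Pou5f1 above Sox2 and Sox2 above Nanog in every male library.

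In female PGCs the order per kilobase was Dppa5a at 191 ± 19.7, Dppa3 at 183 ± 28.7, Pou5f1 at 122 ± 23.4, Utf1 at 84.2 ± 30.2, Sox2 at 70.3 ± 12.6, Dppa4 at 42.1 ± 6.41, Zfp42 at 14.8 ± 1.07, Dppa2 at 10.2 ± 3.25, Esrrb at 7.87 ± 3.46 and Nanog at 7.32 ± 2.76. More neighbours overlapped here. The ranges of Pou5f1 and Utf1, of Utf1 and Sox2 and of Dppa2 and Esrrb overlapped, but the first was above the second in all 3 libraries. Dppa5a was above Dppa3, and Esrrb above Nanog, in 2 of 3 libraries. Nanog moved from the seventh to the last place, and Sox2 passed Dppa4.

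**Figure D2:**
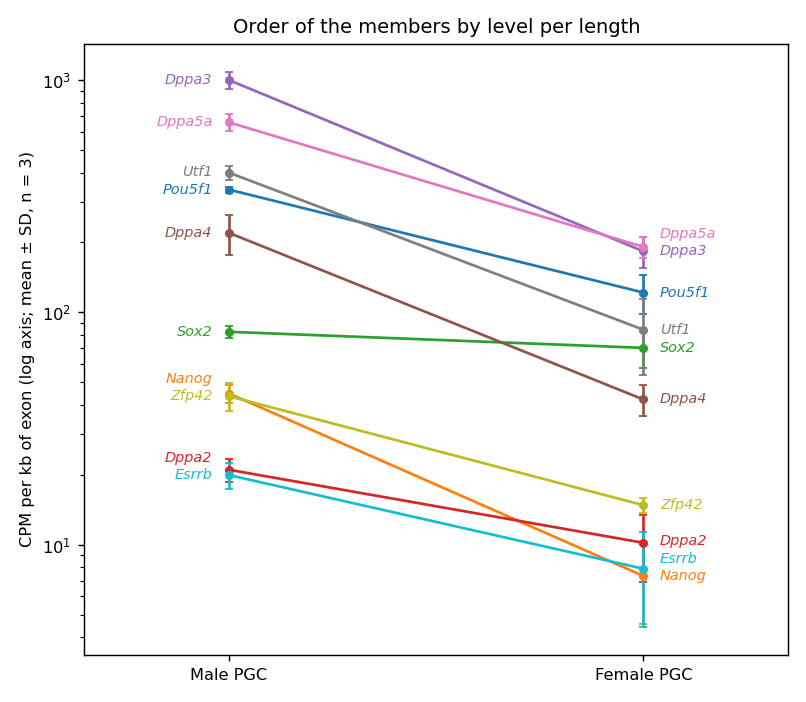
CPM per kilobase of exon of the 10 genes in male and female PGCs, on a log axis. Points are means of 3 libraries and bars are SD. The line of Sox2 is nearly level, from 82.5 to 70.3, while that of Nanog drops from 44.7 to 7.32 and crosses those of Zfp42, Dppa2 and Esrrb.

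Between PGCs of the sexes, 9 of the 10 members were lower in females and Sox2 was not called. Female PGCs held 16.4% of the male mean CPM of Nanog, 18.3% of Dppa3, 19.2% of Dppa4, 21.1% of Utf1, 29.1% of Dppa5a, 33.9% of Zfp42, 36.0% of Pou5f1, 39.5% of Esrrb, 48.5% of Dppa2 and 85.3% of Sox2. On the read depth values, 9 members were called lower, where 32.5% of all genes were. The members' median log2 difference was -1.52 against 0.01 over all genes. Groups did not overlap for 10 members on that scale, where 34.7% of all genes were lower without overlap, and for 9 in CPM, where 29% of all genes were.

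Nanog differed most, by -2.23 ± 0.29 on the read depth scale (SE, adjusted p = 1.21e-05), and Dppa3 by -2.23 ± 0.35 (adjusted p = 6.69e-05). Dppa4 followed at -2.14 ± 0.38, Utf1 at -2.07 ± 0.29 and Dppa5a at -1.64 ± 0.34, with adjusted p-values from 2.76e-05 for Utf1 to 0.000719 for Dppa5a. Pou5f1 at -1.40 ± 0.31, Zfp42 at -1.36 ± 0.32, Esrrb at -1.26 ± 0.31 and Dppa2 at -0.96 ± 0.22 came last among the called members (adjusted p from 0.00109 for Pou5f1 to 0.00236 for Esrrb). Every called member was lower in all 3 female libraries than in any male one. The calls of these 9 genes held when any single library was left out. On log2(CPM + 0.1) those of Dppa2 (adjusted p = 0.138) and Zfp42 (adjusted p = 0.121) were lost, and Dppa2 was below a required log2 difference of 1.

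On the cell number values, 8 members were called lower, where 17.7% of all genes were, and the median of the members was -1.76 against 0.08 over all genes. Nanog stood at -2.76 ± 0.51, Dppa3 at -2.55 ± 0.33, Dppa4 at -2.47 ± 0.41 and Utf1 at -2.40 ± 0.35. Dppa2 was not called on this scale, at -1.18 ± 0.69 (adjusted p = 0.16). It was called with the 6 PGC libraries fitted alone, and its adjusted p ranged from 3.18e-05 to 0.36 over the alternatives. The call of Zfp42, at -1.65 ± 0.59 (adjusted p = 0.0157), was lost when any of 6 libraries was left out: male PGC replicate 1 or 2, male soma replicate 3, or any female PGC replicate (largest adjusted p = 0.113).

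**Figure D3:**
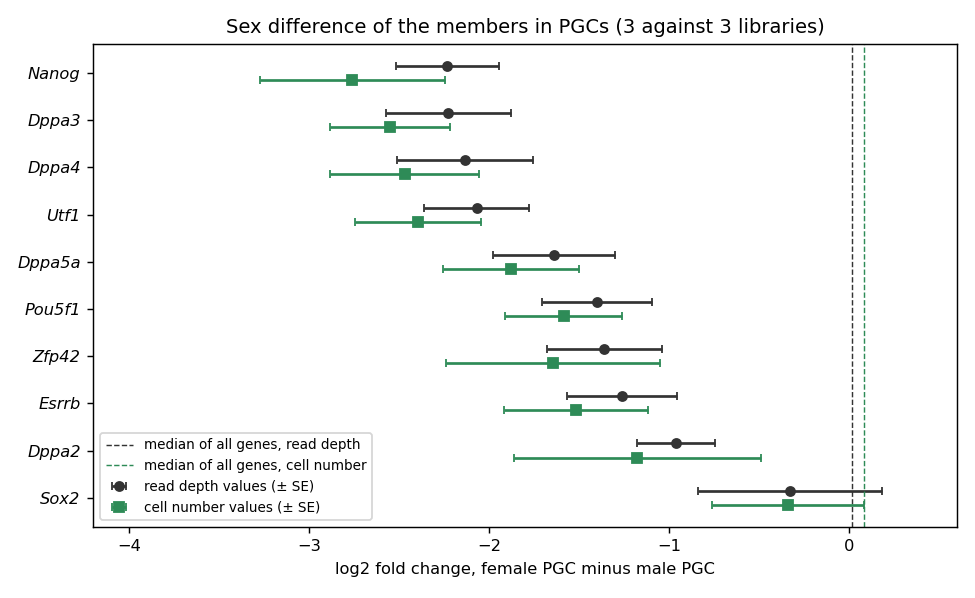
Log2 difference between female and male PGCs for each gene, with its SE, on the read depth values (circles) and the cell number values (squares). Dashed lines mark the median of all genes on each scale, at 0.01 and 0.08. All points lie left of the lines, from -2.76 for Nanog to -0.33 for Sox2.

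Sox2 was the exception. Its log2 difference between female and male PGCs was -0.33 ± 0.51 on the read depth scale (adjusted p = 0.598) and -0.34 ± 0.42 on the cell number scale (adjusted p = 0.547). On the read depth scale the SE is that of the fit to all 4 groups. In that fit female soma holds libraries with 57, 35 and 0 reads of Sox2. On the cell number scale the SE came from limma's trend of variance with level, not from the spread of Sox2 itself. With the 6 PGC libraries fitted alone the difference was -0.33 ± 0.11 (adjusted p = 0.0243) and -0.34 ± 0.13 (adjusted p = 0.0284), and Sox2 was called lower. It was also called on the read depth values without female soma replicate 3 (adjusted p = 0.0298) and by voom (adjusted p = 0.0222), and its adjusted p ranged from 0.0222 to 0.854 over the alternatives. The overlap in CPM depended on scaling, since with TMM scaling male PGCs ran from 176 to 197 and female PGCs from 117 to 163.

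The ratio of Sox2 to each other member within a library does not depend on how libraries are scaled. The mean log2 ratio of Sox2 to Pou5f1 was -2.16 in male PGCs and -0.92 in female PGCs, a difference of 1.24 ± 0.10 (SE). Over the 9 other members this difference ran from 0.84 ± 0.15 against Dppa2 to 2.42 ± 0.18 against Nanog. For all 9 the female libraries were above the male ones without overlap. These ratios were chosen after the values were seen and share the Sox2 counts, so they are a description with no test.

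Female PGC libraries differed among themselves in step. Replicate 3 was the highest of its group for all 10 members in CPM, where it was the highest for 36.9% of all genes, and for all 10 on the cell number values, where it was for 26.6%. The size of the gap varied, from 30.1 CPM against 26.5 and 26.8 CPM for Zfp42 to 70.5 CPM against 29.4 and 42.9 CPM for Esrrb. Its summed germ cell markers, at 3353 CPM, lay between those of the other female PGC libraries, at 3267 and 3485 CPM, and its stromal markers were the lowest, at 9.18 CPM. Its endothelial markers (128 against 73.5 and 76.8 CPM), mesonephric markers (29.4 against 13.7 and 21.1 CPM) and neural markers (44.3 against 34.1 and 29.9 CPM) were the highest of the group, and their part in the members' levels was not tested. Without this library the difference of Nanog between the sexes was -2.45 on the read depth scale and that of Esrrb -1.52, and 9 members remained called lower there. In male PGCs no library was highest throughout, with 3 members highest in replicate 1 and 7 in replicate 2. The shares of all genes highest in these male libraries were not computed.

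Soma levels of these genes were compared with those of germ cell markers, each as a percent of the mean CPM in PGCs of the same sex. In male soma, Ddx4, Dazl and Mael stood at 0.0374% to 0.569% of their PGC level. Members there had a median of 0.141%, 0.165% and 0.166% in the 3 libraries. Esrrb was the highest in each, at up to 3.27%, and was above the markers in all 3 libraries. Utf1 was also above the markers in replicates 1 and 2, at 0.468% and 0.626%. So was Nanog in replicates 2 and 3, at 1.21% and 0.651%.

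In female soma the libraries separated. In replicate 1 the germ cell markers were at 2.21% to 2.84% and the members at 2.68% to 8.80%, with a median of 4.33%. In replicate 2 the markers were at 4.20% to 5.63% and the members had a lower median of 2.22%. Replicate 3 resembled male soma, with markers at 0.117% to 0.299% and a median member at 0.407%. Markers and members were both lowest in replicate 3, which was the lowest of the group for all 10 members (34.1% of all genes). They ranked replicates 1 and 2 in opposite order, with the markers highest in replicate 2 and 9 of the 10 members highest in replicate 1. The share of all genes highest in replicate 1 was not computed. The part of PGC RNA or cells in these soma values was not tested.

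**Figure D4:**
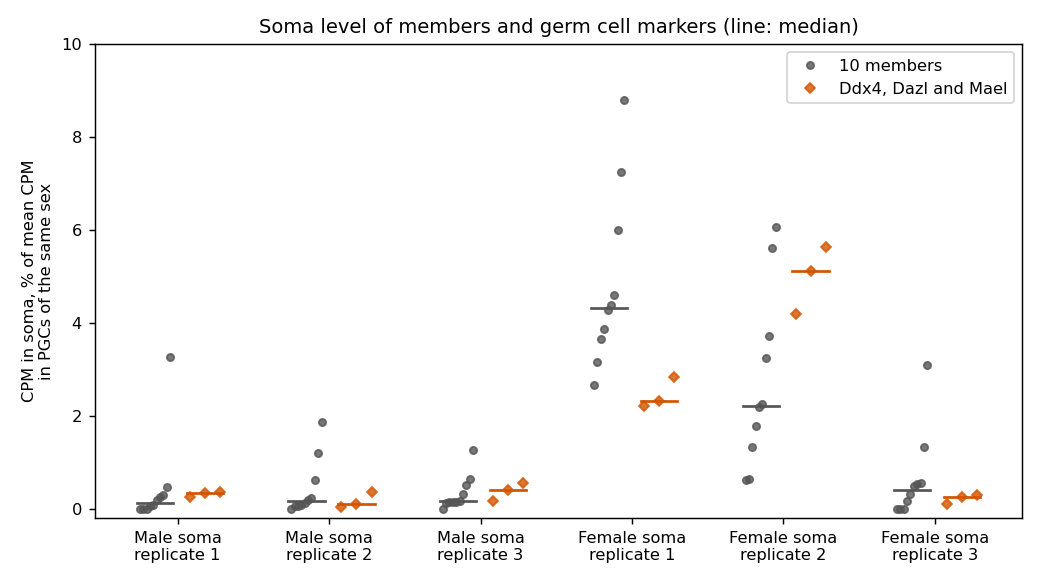
CPM in each soma library as a percent of the mean CPM in PGCs of the same sex, for the 10 genes (circles) and for Ddx4, Dazl and Mael (diamonds). Lines are medians. Female soma replicates 1 and 2 stand apart, with member medians of 4.33% and 2.22%, and the other 4 libraries have medians of at most 0.407%.

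Between the soma of the sexes, 4 members were called higher in females on the read depth values, where 13.3% of all genes were. Pou5f1 was higher by 1.30 ± 0.31 (adjusted p = 0.00696), Sox2 by 1.60 ± 0.51 (adjusted p = 0.0344), Dppa5a by 1.17 ± 0.34 (adjusted p = 0.0223) and Zfp42 by 1.11 ± 0.32 (adjusted p = 0.0215). The groups overlapped for each of them. The germ cell list moved the same way, with 5 of its 8 genes called higher in female soma, and it summed to 96.5 to 255 CPM there against 73.3 to 92.9 CPM in male soma. Leaving out 1 library moved the count of members called higher to between 1 and 6: it was 1 without female soma replicate 1 or 2 or male soma replicate 1 or 3, 2 without male soma replicate 2, and 6 without female soma replicate 3.

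On the cell number values the same 4 genes were called higher, where 2.86% of all genes were. Utf1 (-1.71 ± 0.35, adjusted p = 1.8e-05) and Esrrb (-1.67 ± 0.40, adjusted p = 0.000296) were called lower, where 63.6% of all genes were. These calls rest on SEs from the trend and not on each gene's replicates. Between replicates the log2 SD in male and female soma was 1.01 and 1.11 for Pou5f1 and 0.77 and 3.57 for Sox2. It was 0.82 and 1.66 for Dppa5a and 1.18 and 2.56 for Zfp42. Without the trend limma called 0 higher (2 at an unadjusted p of 0.05). The median over all genes was -0.86 on the cell number scale. With each library centred on its own median, 2 members were called higher and 0 lower by limma (0 also at an unadjusted p of 0.05), and of all genes 1296 were called higher and 1074 lower, against 367 and 8171 without centring. Leaving out 1 library moved the count called higher to between 0 without female soma replicate 1 (1 at an unadjusted p of 0.05) and 5 without female soma replicate 3, and it was 1 without female soma replicate 2. Red blood cell markers differed between these groups too, with the sum of 5 at 17544 to 29477 CPM in female soma and 3354 to 8553 CPM in male soma, and their part in the result was not tested.

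The difference between PGCs and soma was itself smaller in females. The test of that difference called 9 members on the read depth values, all but Esrrb, where 28.9% of all genes were called lower. By voom 5 were called on that scale. The median of the members was -2.45 against -0.01 over all genes. It was -2.87 ± 0.49 for Dppa3 (adjusted p = 0.000237) and -1.42 ± 0.31 for Dppa2 (adjusted p = 0.00145), the ends of the range among the called members. Both the lower level in female PGCs and the higher values in female soma replicates 1 and 2 enter it. On the cell number values 7 members were called, all but Dppa2, Utf1 and Esrrb, where 5.16% of all genes were, and the count ran from 5 to 9 when 1 library was left out and was 4 under quantile normalization and 4 of the 6 members left by the filter on low levels. Without female soma replicate 1 the values of Dppa4 and Sox2 on the cell number scale were -0.64 and -0.76 and neither was called (adjusted p = 0.431 and 0.356). The Sox2 value was -0.94 and not called without female soma replicate 2, and -3.95 and called without replicate 3. Its call was also lost without male soma replicate 3. That of Dppa4 was also lost without male PGC replicate 1 or male soma replicate 2 or 3. The call of Sox2 on the read depth values (-1.93 ± 0.72, adjusted p = 0.0345) held in 2 of the 12 fits that left out a library. All these comparisons share groups, so their values for a gene are not independent of each other.

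Genes next to the members were compared as well. Within 100 kilobases lie 14 other measured genes, of which 6 were called lower and 2 higher in female than in male PGCs on the read depth values, where 32.5% and 32.8% of all genes were. Kndc1, 2252 bases from Utf1, was at 78.0 ± 6.65 CPM in male and 6.86 ± 0.936 CPM in female PGCs (-2.77 ± 0.21, adjusted p = 9.45e-08). Ooep, a maternal effect gene of the egg 7932 bases from Dppa5a, was at 28.3 ± 2.35 and 3.80 ± 0.604 CPM. Gdf3, a TGF-beta family ligand 16323 bases from Dppa3, was at 30.8 ± 5.74 and 9.61 ± 4.01 CPM. Slc2a3, a glucose transporter gene 13176 bases from Nanog, differed less, at 117 ± 12.7 and 76.9 ± 18.6 CPM.

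The other neighbours described went the opposite way, differed little or were not called. Gpatch2l, 69333 bases from Esrrb, rose from 34.9 ± 1.36 to 95.2 ± 5.24 CPM (0.97 ± 0.08, adjusted p = 1.64e-07). Ddx43, a helicase gene 27600 bases from Dppa5a, rose from 11.9 ± 4.03 to 32.3 ± 6.61 CPM. Tcf19, 1962 bases from Pou5f1, had 16.4 ± 4.41 and 14.01 ± 3.17 CPM (adjusted p = 0.141), and Cchcr1, the next gene, 27.8 ± 2.56 and 20.2 ± 2.85 CPM (-0.43 ± 0.10, adjusted p = 0.00171). Tubgcp2, 50843 bases from Utf1, had 68.6 ± 7.02 and 76.3 ± 6.85 CPM (adjusted p = 0.945).

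Related genes were read from lists of pluripotency factors and their partners, in the same comparison of female with male PGCs on read depth values. Of 16 genes of the naive state, 3 were called higher and 6 lower, where 32.8% and 32.5% of all genes were, with a median of -0.43 against 0.01 over all genes. Tcl1, an activator of AKT signalling, fell from 107 ± 14.1 to 20.03 ± 6.55 CPM, and Prdm14, which is needed to specify PGCs, from 47.5 ± 10.1 to 14.5 ± 1.76 CPM. The nuclear receptor gene Nr5a2 fell from 42.4 ± 2.65 to 12.4 ± 3.29 CPM. Gbx2, a homeobox gene, rose from 1.40 ± 1.07 to 37.5 ± 4.04 CPM. Sall4, a zinc finger partner of Oct4, had 454 ± 34.2 and 271 ± 73.0 CPM and was not called (adjusted p = 0.0882), nor was Zfp281 at 113 ± 14.5 and 128 ± 4.33 CPM.

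Of 14 genes of the primed state 8 were measured. Of these, 1 was called higher and 3 lower, where 32.8% and 32.5% of all genes were, with a median of -0.12. Otx2, a homeobox gene of the epiblast and forebrain, had 40.2 ± 5.93 CPM in male PGCs and was listed at 0 reads in all 3 female PGC libraries. Cdx2, a homeobox gene of trophectoderm and hindgut, was at 0.118 ± 0.103 CPM in male and 56.3 ± 14.9 CPM in female PGCs. Sox3, the closest relative of Sox2, fell from 18.9 ± 2.09 to 8.95 ± 0.608 CPM, and the DNA methyltransferase gene Dnmt3b from 15.6 ± 2.45 to 10.2 ± 0.936 CPM. Lef1 was not called, at 61.1 ± 2.74 and 86.8 ± 12.9 CPM (adjusted p = 0.0554).

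A further list held 23 genes tied to pluripotent cells, 21 of them measured. It had 15 lower and 2 higher, where 32.5% and 32.8% of all genes were, and a median of -0.81. Its greatest falls were in Nodal signalling. Lefty2 and Lefty1, which encode inhibitors of Nodal, fell from 142 ± 34.7 to 0.509 ± 0.279 CPM and from 105 ± 31.7 to 0.515 ± 0.0919 CPM, and Nodal itself from 31.3 ± 2.59 to 0.420 ± 0.241 CPM. Cdh1, which encodes E-cadherin, fell from 305 ± 13.6 to 52.7 ± 3.55 CPM. Lin28a, an RNA-binding factor that blocks let-7 processing, had 365 ± 41.6 and 359 ± 60.2 CPM (adjusted p = 0.549), and Tex19.1, a germ cell gene, 277 ± 36.8 and 199 ± 19.7 CPM (adjusted p = 0.248).

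Among 23 protein partners and cofactors of the network, 16 were lower and 4 higher, where 32.5% and 32.8% of all genes were. The median of this list was -0.24, so that most of these falls were small. Sall1 fell from 47.9 ± 7.72 to 6.50 ± 0.995 CPM, and Ogt, the X-linked gene of O-GlcNAc transferase, from 374 ± 55.3 to 176 ± 17.1 CPM. Trim28, a corepressor gene, fell from 1627 ± 107 to 895 ± 86.9 CPM, while Chd4, a remodeller of the NuRD complex, differed little, at 963 ± 47.1 and 922 ± 48.7 CPM (-0.17 ± 0.06, adjusted p = 0.0202).

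Of 16 relatives of the members by family, 14 were measured. Of these, 8 were lower and 3 higher, where 32.5% and 32.8% of all genes were, with a median of -0.85. Khdc3, a KH domain relative of Dppa5a, fell from 43.3 ± 8.00 to 1.13 ± 0.344 CPM, and the POU gene Pou6f1 from 109 ± 18.3 to 8.41 ± 0.549 CPM. Sox9, the testis-determining SOX gene of Sertoli cells, had 5.03 ± 1.97 CPM in male and 0.155 ± 0.268 CPM in female PGCs, and the supporting cell markers, of which it is 1, summed to 51.8 to 103 CPM in male and 12.4 to 45.4 CPM in female PGC libraries. The part of such cells in the Sox9 value was not tested. The widely expressed relatives Pou2f1, at 120 ± 14.1 and 116 ± 3.88 CPM, and Sox12, at 178 ± 4.45 and 161 ± 23.4 CPM, were not called (adjusted p = 0.12 and 0.0516).

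Over the 12 libraries the 45 pairs of members had Pearson correlations of 0.917 to 0.998 on the read depth values, with a median of 0.981. The lowest was between Nanog and Sox2 and the highest between Dppa5a and Zfp42. These values are a description, since the points form 4 groups and share libraries. The measured genes most like each member by the same measure fell into kinds. Sox2 was most like Ddx4 (0.995), Adad2 and Cyct, germ cell genes that were not lower in mean CPM in female PGCs. Pou5f1, Dppa5a and Zfp42 each had Tdrd12, a gene of the piRNA pathway, among their 3 nearest, at 0.997, 0.998 and 0.995. Dppa3 and Dppa4 shared Foxr1 and Tcl1, and Nanog and Utf1 shared Nvl.

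Nanog was further most like Usp43 (0.993) and L1td1 (0.991), an RNA-binding gene of embryonic stem cells at 164 CPM in male and 28.9 CPM in female PGCs. Pou5f1 had Fbxo15 and Trim6 as its other nearest, and Dppa2 had Atp10a and Vrtn among its nearest. Dppa3 was closest to Klhl21, Dppa4 had Derl3 as its remaining one, Dppa5a had Cbx7 and Usp26, and Zfp42 had Cbx7 and Dennd2c. Utf1 was nearest to Arid3b and Azi2, and Esrrb to Mrpl38, Npm3 and Mettl25, at 0.987 to 0.991.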

How the data were processed

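Sorted PGCs and soma received ERCC spike-in RNA per number of cells, and a directional kit was used, per the labels' protocols. The submitters' processing notes name mm10 and, in no stated role, limma 3.28.14, edgeR 3.14.0, DESeq2 1.12.3, R 3.3.0, HTSeq 0.6.1p1, TopHat2 2.0.9 and Trim Galore 0.4.0. The authors deposited 2 tables of log2 values for the 12 libraries, 1 for read depth, whose transform no source used here states, and 1 whose abbreviated name was read as cell number. The latter is log2 of whole reads plus 0.5 over an effective size (100% of values came out whole within 0.001 reads), and CPM were computed from those reads. No spike-in rows were there to check the scaling. Differences were tested with limma 3.58.1 (R 4.3.3) using a mean for each of 4 groups and a variance trend. On the cell number values that trend alone set the variance of each gene in the main fit. Calls were made at a Benjamini-Hochberg adjusted p of 0.05 over the 12845 genes. Exon lengths and locations come from GENCODE vM21 (GRCm38), in which 12409 genes matched by symbol, and similar transcripts from blastn 2.17.0. Sequences are from RefSeq.

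The members and gene lists were chosen with earlier results of these data known. Besides the members, the text names up to 4 genes of a list with the largest difference between PGCs of the sexes and its 2 highest, genes within 100 kilobases, the 3 genes most correlated with a member, and germ cell markers. Some genes that this rule names are not reported here. The limma pipeline was tested on simulated data. In none of 12 replicate pairs did counts agree within sampling noise (chi-square over its degrees of freedom at least 5.45). The labels name no batch. Intervals, and the limit of 3 reads for a count of 0, cover counting error only. Alternatives were single libraries left out, no genes from the lowest 25%, a log2 difference of at least 1, centring, quantile normalization, other variance settings, only the groups compared, a replicate block, voom and pseudocounts of 1 and 0.1 on CPM. TMM scaling was computed from its formula.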

Additional observations from a re-analysis of the deposited data

Results flagged for a closer look

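The difference between PGCs and soma itself differed between the sexes by limma's interaction test, in the female minus male direction, for 9 members on the read depth values and 7 on the cell number values. On the read depth scale this log2 difference was -2.87 for Dppa3, -2.81 for Dppa5a, -2.70 for Pou5f1, -2.66 for Nanog, -2.47 for Zfp42, -2.43 for Dppa4, -1.93 for Sox2, -1.65 for Utf1 and -1.42 for Dppa2. On the cell number scale it was -3.81 for Zfp42, -3.27 for Nanog, -2.90 for Dppa5a, -2.78 for Pou5f1, -2.63 for Dppa3, -1.88 for Sox2 and -1.73 for Dppa4. With single libraries left out, the last 2 ran from -3.95 to -0.76 for Sox2, called in 9 of 12 fits, and from -2.54 to -0.64 for Dppa4, called in 8 of 12. On the read depth scale Sox2 was called in 2 of 12. The first 2 on the cell number scale ran from -5.29 to -3.05 for Zfp42 and from -4.04 to -1.77 for Nanog, each called in 12 of 12. They rest on few reads, since male soma held 0, 5 and 0 reads of Zfp42 and 0, 30 and 12 of Nanog. The value of a library with 0 reads is set by the 0.5 added to reads and by its effective size. Over all genes the median was -0.01 on the read depth scale and 0.91 on the cell number scale. For Sox2 the read depth value is made up of -0.33 between PGCs and 1.60 between soma, where females had 57, 35 and 0 reads and males 1, 8 and 4. The germ cell markers were also highest in female soma replicates 1 and 2, and their part in these values was not tested.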

How the results depend on the processing

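No member's difference between PGCs and soma of either sex, or between PGCs of the sexes, changed sign under any alternative, and the counts of calls kept within 1.5 times of those reported, except where the filter on the lowest 25% of genes left fewer members to test: on the cell number values 6 members were then tested and all 6 were called in PGCs against soma of males and of females. The comparison of soma between the sexes was the least stable. On the read depth values the count called higher was 2 with a robust prior variance, 1 with only the groups compared, 0 by limma's voom (1 at an unadjusted p of 0.05) and 2 on log2(CPM + 0.1), and 1 to 6 with single libraries left out, while the count called lower was 0 to 1. On the cell number values the count called higher was 2 under median centring and under the low-level filter, 1 under quantile normalization, voom and log2(CPM + 1), 0 without the intensity trend and with only the groups compared (limma, 2 and 0 at an unadjusted p of 0.05), and 0 to 5 with single libraries left out. The count called lower there was 0 under median centring and 1 by voom and with only the groups compared. For the sex difference of PGCs against soma, voom called 5 on the read depth scale, and on the cell number values the filter gave 4 of 6 and quantile normalization 4. The causes were not tested, beyond the smaller number of genes under the filter.

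Reversed signs were all on values that were not called. For Esrrb, the sex difference of PGCs against soma on the cell number values was -0.84 under median centring, -0.0022 by voom, -0.75 on log2(CPM + 1), -0.0018 on log2(CPM + 0.1) and -0.23 to 0.78 with single libraries left out. That of Utf1 ran from -1.26 to 0.0055 with single libraries left out. Between the soma of the sexes on the cell number values, Dppa3 ran from -0.58 to 0.72 and Dppa4 from -1.84 to 0.073 with libraries left out, and Dppa4 was 0.14 under median centring. Nanog ran from -0.99 to 1.28 and was -0.22 under quantile normalization and -0.076 on log2(CPM + 1). On the read depth values Dppa4 ran from -0.29 to 0.71. On the cell number scale CPM here means reads per effective library size. Of 40 group levels, 5 moved by more than 1 SD under TMM scaling, all in male PGCs.

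The deviations of same-numbered libraries, within and across sexes, correlated at -0.361 to 0.0715 on the read depth values. Between PGCs and soma of the same sex and number they ran from -0.0715 to 0.0715. Libraries of different number ran from -0.177 to 0.263. With 3 libraries a group these values do not settle whether samples were paired. With the replicate number as a block the counts of calls were 10, 10, 9, 4 and 9 on the read depth values and 10, 10, 8, 4 and 7 on the cell number values, in the order of the report.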

Other observations

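Meiotic and male germ cell genes, chosen after the values were seen, are described beside the members. Stra8, the gatekeeper of meiotic entry, was at 626, 616 and 448 CPM in the female PGC libraries and at 4.40, 0.943 and 4.18 CPM in the male ones. Rec8, a meiotic cohesin gene, was at 444, 471 and 436 CPM in females and 22.8, 12.6 and 25.9 CPM in males. Sycp3, which encodes an axial element of meiotic chromosomes, was at 443, 487 and 262 CPM in females and 68.0, 42.0 and 62.1 CPM in males. Nanos2, which directs male germ cell fate, was at 81.0, 38.5 and 75.1 CPM in males and 0.627, 0.310 and 0.478 CPM in females. Female PGC replicate 3, in which all 10 members were highest of their group (36.9% of all genes), had the lowest Stra8, Rec8 and Sycp3 of the 3 female libraries. For Rec8 the gap was small, at 436 CPM against 444 and 471 CPM. Male PGC replicate 2, in which 7 of the 10 members were highest, had the lowest Stra8, Rec8, Sycp3 and Nanos2 of the 3 male libraries. Other members went the other way there. Dppa3, at 804 CPM against 951 and 919, and Dppa4, at 286 CPM against 422 and 387, were lowest in that library. Pou5f1, at 754 CPM, lay between the other male libraries. The share of all genes highest in male PGC replicate 2 was not computed, nor that of genes lowest in either of these libraries. With 3 libraries a group these orders were not tested.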
